A study of Mus musculus with 4 samples.

Results

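Chemokine ligands and receptors were examined in the cervical spinal cord of NC/Nga mice with and without a dermatitis phenotype. The members are all probes of the array whose platform annotation names a CC or CXC chemokine ligand or the ligand Cx3cl1. Probes for a CC, CXC or atypical chemokine receptor are members too. The members were chosen by gene symbol, with earlier results of these data known. They are 52 of the 19057 genes named on the array, 33 ligand genes and 19 receptor genes, measured by 78 of its 45281 probes. Another 3 genes of the family are not analysed here. RNA came from male NC/Nga mice 9 weeks old, an inbred strain that stays healthy in clean housing and develops an itchy skin disease like human atopic dermatitis in an ordinary animal room. The control group was kept specific pathogen free (SPF, normal phenotype, 2 arrays) and the other group in conventional housing (atopic dermatitis phenotype, 2 arrays). Both groups share strain, sex, age and tissue, and no other treatment is labelled. Housing and disease therefore cannot be told apart, and nothing in the labels says whether the arrays of a group are separate animals or pools, so p-values measure only the spread between these arrays.

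Chemokines are small secreted proteins that steer migrating cells through receptors coupled to inhibitory G proteins, and atypical chemokine receptors bind and remove chemokines without that signal. In the healthy central nervous system a few chemokines are made constantly, such as Cxcl12 and the neuronal ligand Cx3cl1, while most inflammatory ones are made by glia, vessels or incoming leukocytes after a stimulus. In NC/Nga skin lesions, Ccl17 and Ccl22 are known to be raised and attract T cells through Ccr4.

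The array-wide data frame every value below. Each array had 20334 to 20960 probes above background (44.9% to 46.3%), meaning a detection p under 0.05 against the negative-control beads of that array, and a median signal of 113.6 to 119.4 before normalization. The cord identity was checked with markers. Astrocyte genes were above background for 6 of 6, oligodendrocyte genes for 5 of 5 on the array and microglial genes for 10 of 11. Of 6 neuronal genes, Rbfox3, Syt1, Stmn2 and Nefm were above background on all 4 arrays, while the probes for Snap25 and Nefl were not on any array. Among leukocyte markers, 5 of 6 T cell genes and 3 of 3 B cell genes on the array were not above background on any array. By contrast, 8 of 8 neutrophil genes and 2 of 5 mast cell genes were above it on at least 2 arrays. The 2 mast cell genes were Kit and Cpa3, with Cpa3 near background (4.88 to 5.20) and above it on 2 arrays only. Mcpt4 and Tpsb2 were above background on no array.

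A minority of the chemokine family was measurable in the cord. Of 52 genes, 18 were above background on all 4 arrays and Ccl3 on 3, which makes 19 genes that could be tested. Another 3 genes (Ackr2, Ccr9 and Ccr10) reached it on 1 array, conventional replicate 2 in each case, and 30 genes on none. By the definition of the threshold, 5% of negative-control beads pass it on an array, so a probe that passes on a single array is not told apart from background. Per array, 27 and 28 of 78 member probes passed on the SPF arrays and 27 and 28 on the conventional arrays (34.6% to 35.9%). Of the member probes, 28 passed on at least 2 arrays, against 46.5% of all probes, and 45 passed on none, against 47.4% of all probes. Ackr2, which removes inflammatory CC chemokines, stood at 4.89, 4.89 and 4.85 log2 units of normalized intensity on the first 3 arrays and at 5.16 on conventional replicate 2. Ccr9 stood at 4.44, 4.69 and 4.55 against 5.05, and Ccr10 at 4.50, 4.53 and 4.61 against 5.10. The number of member genes above background was 19 on 3 arrays and 21 on conventional replicate 2.

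**Figure D1:**
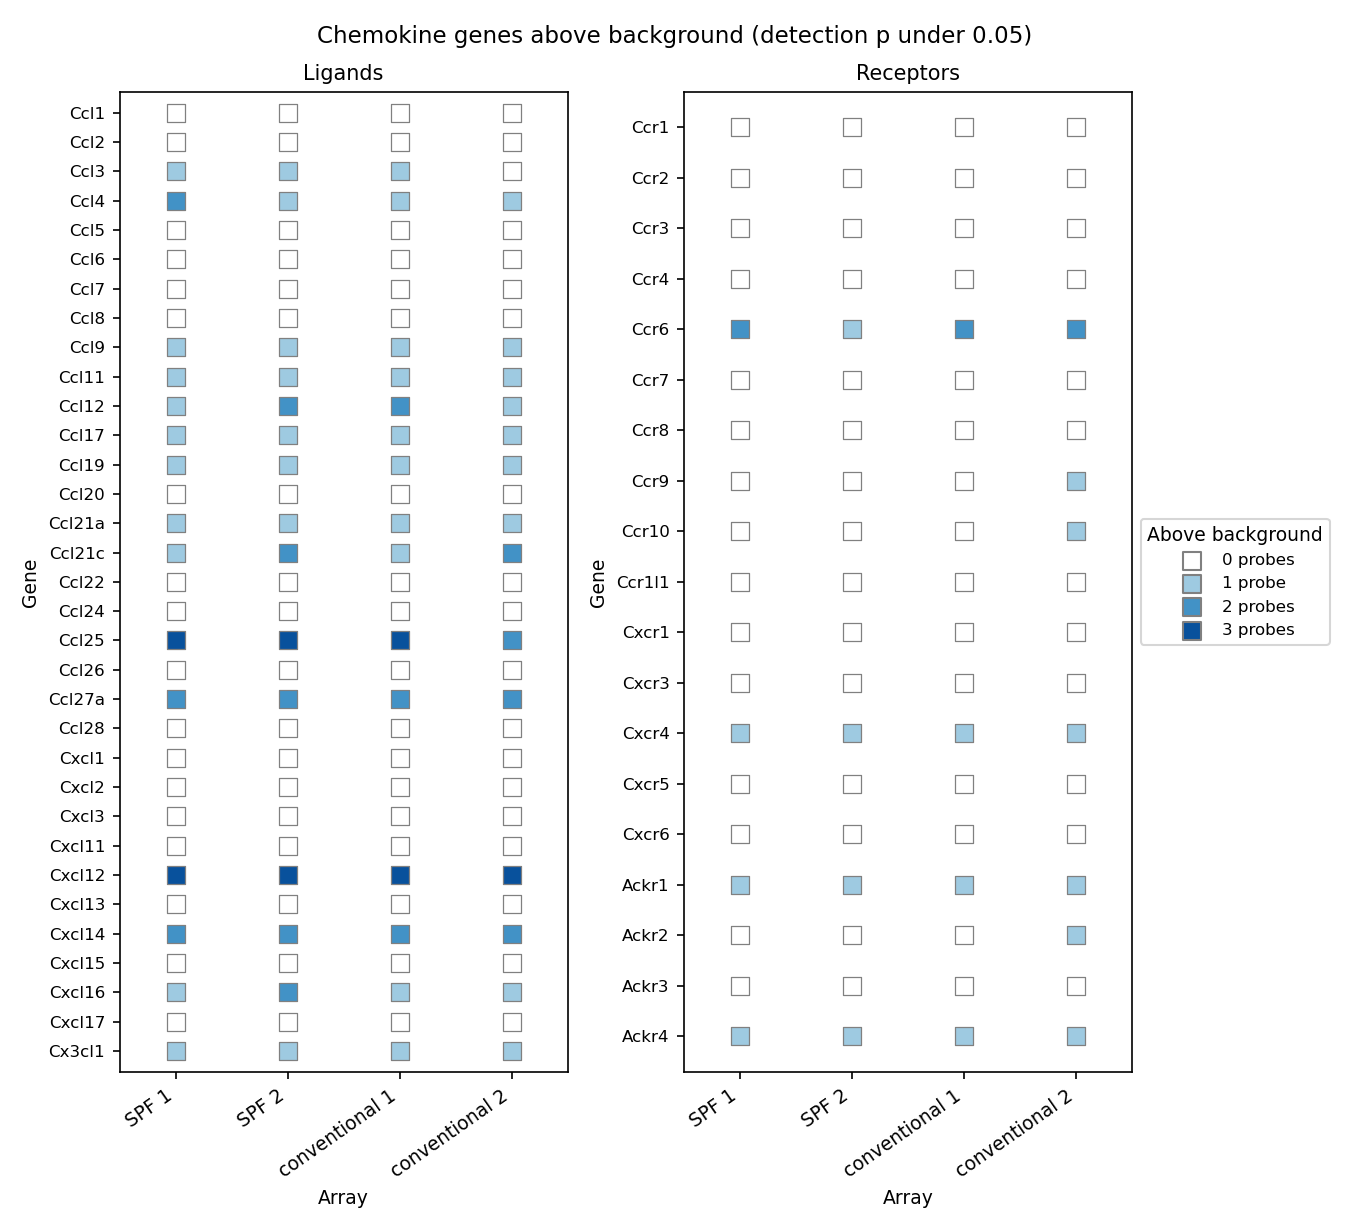
Chemokine genes above background on each array. Each row is a gene, each column an array, and the shade gives how many of its probes had a detection p under 0.05. The pattern is nearly the same on the 4 arrays, with 19 genes marked on 3 arrays and 21 on conventional replicate 2.

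Of 33 ligand genes 15 were tested, and of 19 receptor genes 4, a difference in shares that was not tested. Of 22 CC ligand genes, 11 were tested: Ccl3, Ccl4, Ccl9, Ccl11, Ccl12, Ccl17, Ccl19, Ccl21a, Ccl21c, Ccl25 and Ccl27a. The CC ligands above background on no array were Ccl1, Ccl2, Ccl5, Ccl6, Ccl7, Ccl8, Ccl20, Ccl22, Ccl24, Ccl26 and Ccl28. Of 10 CXC ligand genes, Cxcl12, Cxcl14 and Cxcl16 were tested, and Cxcl1, Cxcl2, Cxcl3, Cxcl11, Cxcl13, Cxcl15 and Cxcl17 were above background on no array. The absent group holds the neutrophil attractants Cxcl1 and Cxcl2, the monocyte attractants Ccl2 and Ccl7 and the T cell attractant Ccl5. Of 10 CC receptors only Ccr6 was tested, of 5 CXC receptors only Cxcr4, and of 4 atypical receptors Ackr1 and Ackr4. A probe below background shows that no signal was detectable with that probe, not that the transcript was absent.

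Most ligands were measured without their receptor. Among 13 textbook pairs whose ligand was above background on at least 2 arrays, a list drawn up after the detection calls were seen, the receptor was above background on at least 2 arrays in 2 pairs, on 1 array in 2 pairs and on no array in 9. The pairs with both partners measured on all 4 arrays were Cxcl12 with Cxcr4 and Cx3cl1 with Cx3cr1, the receptor of microglia. Ccr7, the receptor for Ccl19 and the Ccl21 proteins on lymphocytes and dendritic cells, was not above background, and neither was Ccr4 for Ccl17, Ccr3 for the eosinophil attractant Ccl11, Ccr2 for Ccl12, Ccr1 for Ccl3 and Ccl9 or Cxcr6 for Cxcl16. In the opposite case, Ccr6 was measured and its ligand Ccl20 was not.

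The comparison of conventional with SPF cord asked whether the skin disease goes with altered chemokine transcripts in the cord segments that serve the neck and forelimbs. No chemokine gene passed limma's test: 0 of 19 had an adjusted p under 0.05, against 0% of 14634 features tested, and all 19 had an adjusted p of 1. At an unadjusted p under 0.05 there were also 0 of 19, against 3.03% of all features. Both conventional arrays lay above both SPF arrays in 5 genes, against 15.6% of all features, and below both in 2, against 15.1%. The conventional mean was above the SPF mean in 13 genes and below it in 6, with a median log2 difference of 0.07, against 49.9% of features above and a median of 0.00 over all features. In 13 of 19 genes the 95% interval lay within 1 log2 unit of 0 on both sides. For dim probes the offset of 16, added before the log2 step, shrinks differences, so their intervals do not bound the change in transcript. With 2 arrays against 2, an exact two-sided permutation test of 1 gene cannot go below p = 0.333. Differences are conventional minus SPF in normalized log2 intensity, each with the standard error of the limma fit (n = 2 arrays a group). Values of a gene's further probes come from the fit in which every kept probe is a feature.

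**Figure D2:**
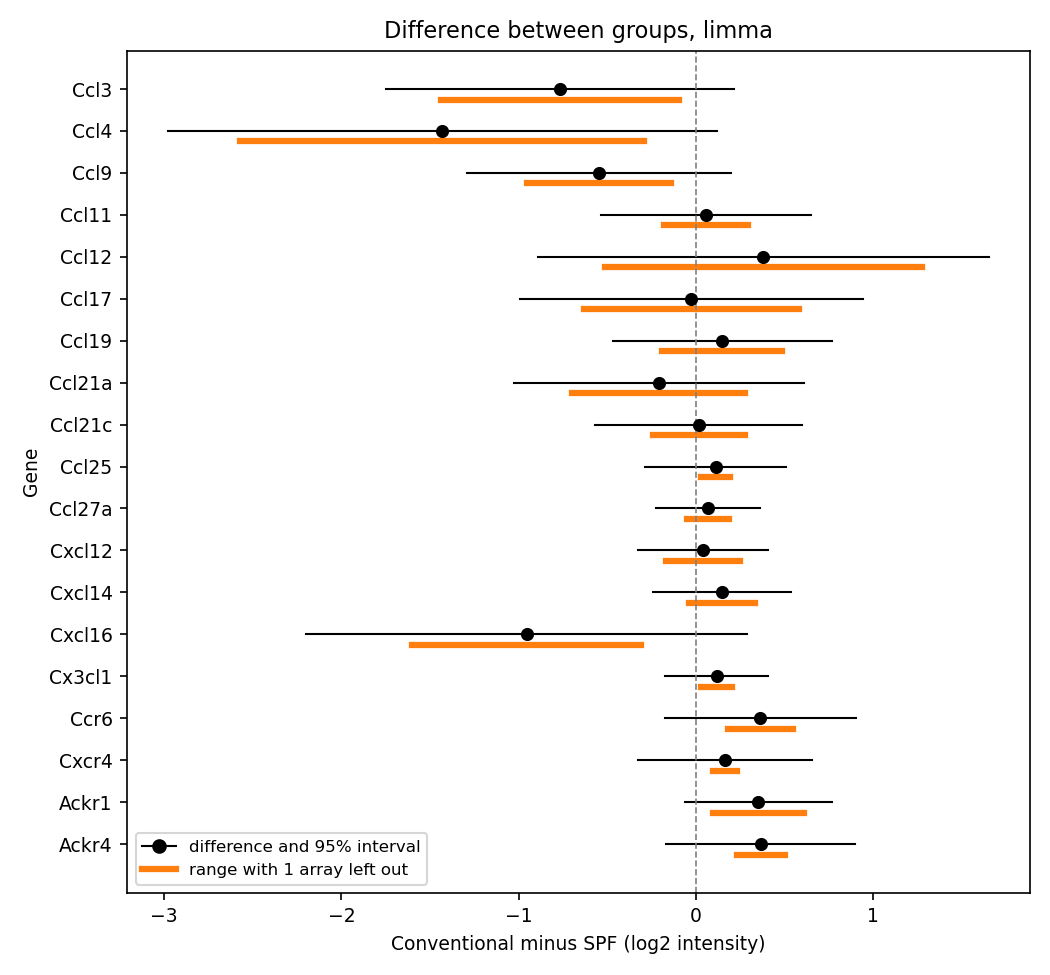
Difference between conventional and SPF cord for the 19 tested chemokine genes. The x axis is the log2 difference, the points and black lines give the estimate and its 95% interval, and the orange bars give the range when each array in turn was left out. Every black interval spans 0, and the widest belong to Ccl4, Ccl12 and Cxcl16.

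Ligands that the cord is known to make constantly differed little. The stromal ligand Cxcl12, which holds progenitors and leukocytes in place through Cxcr4, stood at 10.93 and 11.35 log2 units on the SPF arrays and 11.20 and 11.15 on the conventional arrays. The conventional values lie between the SPF values, and the difference was 0.04 ± 0.15 (95% interval -0.33 to 0.41). Another 2 probes of Cxcl12 above background on all arrays gave 0.15 ± 0.26 and 0.20 ± 0.21. Its remaining probes were not above background on any array. Cx3cl1, the membrane-bound ligand of neurons, stood at 10.87 and 10.69 in SPF and 10.83 and 10.96 in conventional cord. The groups overlapped, with a difference of 0.12 ± 0.12 and an interval of -0.18 to 0.41, so that a doubling or halving lies outside the interval. Omitting SPF replicate 2 gave 0.029, and omitting SPF replicate 1 gave 0.20.

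Cxcl14, a ligand found in epithelia and neurons, stood at 9.59 and 9.97 on the SPF arrays and 9.84 and 10.02 on the conventional arrays, a difference of 0.15 ± 0.16. A further probe gave 0.05 ± 0.24, and the groups overlapped for both probes. Ccl27a, the skin-homing chemokine whose product attracts Ccr10-bearing T cells, stood at 11.24 and 11.49 in SPF and at 11.39 and 11.47 in conventional cord, a difference of 0.07 ± 0.12. Its further probe was higher on the conventional arrays (9.61 and 9.61) than on the SPF arrays (9.35 and 9.50), with 0.18 ± 0.13. Near-identical copies of Ccl27a exist in the mouse genome, so its signal may come from more than one gene. Ccl25, which guides thymocytes and gut T cells, stood at 7.99 and 7.97 in SPF and 8.01 and 8.17 in conventional cord. These groups did not overlap, the difference was 0.11 ± 0.17, and its other 2 probes gave 0.30 ± 0.23 and -0.14 ± 0.22, both with overlap. The Ccl25 difference of the reported probe became 0.029 when conventional replicate 2 was omitted and 0.19 when conventional replicate 1 was.

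The lymphoid ligands of Ccr7 showed no separation of the groups. Ccl19 stood at 6.73 and 7.41 in SPF and at 7.21 and 7.23 in conventional cord, a difference of 0.15 ± 0.26. Ccl21a stood at 6.55 and 6.96 in SPF and at 6.06 and 7.03 in conventional cord (-0.21 ± 0.35), so the conventional arrays bracketed the SPF arrays. Ccl21c differed by 0.01 ± 0.25. The Ccl21a probe and this Ccl21c probe were lowest on conventional replicate 1 and highest on conventional replicate 2, whereas a further Ccl21c probe was lowest on SPF replicate 1. The Ccl21 genes are near-identical copies, and Ccl19 has pseudogene copies, so the assignment of these probes to single genes is uncertain.

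The reported probes of Ccl17 and Ccl11, ligands of type 2 inflammation, were above background on all 4 arrays without a group difference. Ccl17 stood at 5.96 and 5.42 in SPF and at 5.05 and 6.26 in conventional cord, a difference of -0.03 ± 0.41. The conventional arrays were the lowest and the highest of the 4. Leaving out conventional replicate 2 gave -0.63, and leaving out conventional replicate 1 gave 0.58. Ccl11, the eosinophil attractant eotaxin, stood at 5.40 and 5.67 in SPF and at 5.83 and 5.35 in conventional cord, a difference of 0.06 ± 0.25. It ran from -0.18 to 0.29 over the fits that omitted a conventional array. The other Ccl11 probe failed the detection threshold on all 4 arrays, with detection p from 0.70 to 0.95, so the Ccl11 signal rests on the reported probe. The skin partner of Ccl17, Ccl22, was not above background on any array, nor were the further Ccr3 ligands Ccl24 and Ccl26.

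**Figure D3:**
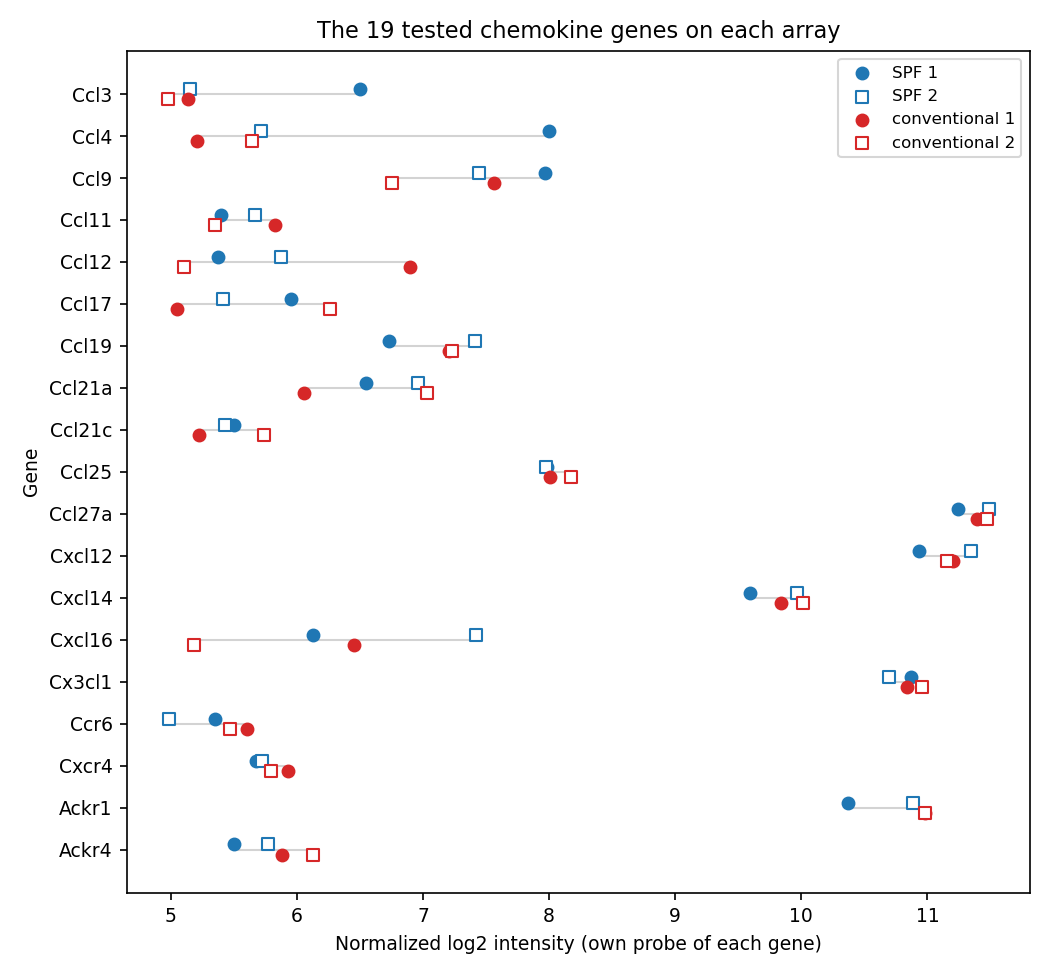
Normalized log2 intensity of the 19 tested chemokine genes on each array. Circles are replicate 1 and squares replicate 2, blue is SPF and red conventional, and levels are to be compared within a row because each gene has its own probe. Ccl3 and Ccl4 stand apart on SPF replicate 1, Ccl12 on conventional replicate 1 and Cxcl16 on SPF replicate 2.

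Ccl4 and Ccl3, inflammatory ligands of macrophages, had negative differences that rested on a single SPF array. Ccl4 (MIP-1 beta), made by activated microglia and macrophages, stood at 7.996 and 5.72 in SPF and at 5.21 and 5.64 in conventional cord. Its conventional arrays lay below both SPF arrays, but SPF replicate 1 stood 2.28 log2 units above SPF replicate 2, a gap reached by 0.164% of all features in either group. The difference was -1.43 ± 0.65 (unadjusted p = 0.065, adjusted p = 1 in limma's test), and without SPF replicate 1 it was -0.29. Ccl3 (MIP-1 alpha), the neighbouring gene in the RefSeq gene table, followed the same course with 6.497 and 5.16 in SPF against 5.14 and 4.98 in conventional cord. Its difference was -0.77 ± 0.41, and -0.10 without SPF replicate 1, and with median scaling its groups overlapped. A second Ccl4 probe passed the detection threshold on SPF replicate 1 alone and stood there at 5.60, against 4.72, 4.76 and 4.85 on the other arrays.

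Marker genes of other cells were also high on SPF replicate 1. The summed normalized intensity of 4 tested skeletal muscle genes (of 6, Myh1 and Myh4 not above background) was 1140 there, against 353 on SPF replicate 2 and 457 and 267 on the conventional arrays. That of 5 red blood cell genes (of 5 on the array) was 43100, against 29500, 21200 and 13100. For microglia, 10 of 12 listed genes summed to 4240 and 3040 in SPF and to 4030 and 2680 in conventional cord, with Itgam not above background. In bulk tissue, fewer cells of a type and less RNA per cell cannot be told apart, and the part of these cells in the Ccl3 and Ccl4 values was not tested.

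Ccl9, a macrophage chemokine of rodents that acts on Ccr1, stood at 7.96 and 7.44 in SPF and at 7.57 and 6.75 in conventional cord, a difference of -0.55 ± 0.32 with overlapping groups. In both groups replicate 1 was above replicate 2. The summed signals of the microglial, skeletal muscle and red blood cell genes given above had this order too. So had the sums of 6 of 6 astrocyte genes (38800 and 24600 in SPF, 42800 and 25300 in conventional cord). The sum of 8 of 8 neutrophil genes did as well (1280 and 1050, 3760 and 873), and so did that of 2 of 5 mast cell genes (981 and 721, 951 and 555). Gene by gene, the order did not hold in SPF for Slc1a2, Tmem119, Slc4a1, Ngp, Mpo and Elane. In conventional cord it did not hold for S100b and Cpa3. Of the mast cell genes, Mcpt4 and Tpsb2 were above background on no array. The mast cell sum is mostly Kit, at 9.89 and 9.43 in SPF and 9.85 and 9.02 in conventional cord. Cpa3, near background, stood at 5.10 and 4.97 in SPF and at 4.88 and 5.20 in conventional cord, where replicate 1 was the lower. The microglial receptor gene Cx3cr1 had the same order, with 9.04 and 8.50 in SPF and 8.77 and 8.21 in conventional cord, and differed by -0.28 ± 0.25. The Ccl9 difference became -0.95 when conventional replicate 1 was omitted and -0.14 when conventional replicate 2 was. The part of these cells in the Ccl9 values was not tested.

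Cxcl16, a membrane-bound ligand of macrophages and vessels that is also a scavenger receptor, stood at 6.13 and 7.42 in SPF and at 6.45 and 5.18 in conventional cord. The difference was -0.96 ± 0.53 with overlapping groups, and without SPF replicate 2 it was -0.31. A second probe passed the detection threshold on SPF replicate 2 alone, at 5.44 against 4.65, 4.73 and 4.60 elsewhere. The arrays ranked for Cxcl16 as they did for the sum over 9 tested meningeal fibroblast genes (of 10, Col3a1 not above background). This sum came to 5320 and 24400 in SPF and to 8320 and 2590 in conventional cord. Gene by gene, Col1a2 alone departed from this order. The same order held for the sum of 4 tested border macrophage genes of 9 listed, Mrc1, Lyve1, F13a1 and Pf4. The sums were 178 and 408 in SPF and 350 and 135 in conventional cord. Of these genes, Mrc1 and Lyve1 had this order. F13a1 was highest on conventional replicate 1, and Pf4 was lowest on SPF replicate 1. Ms4a7 and the monocyte receptor gene Ccr2 were not above background. The part of these border cells in the Cxcl16 values was not tested.

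Ccl12, a monocyte attractant of the mouse that acts on Ccr2, was high on 1 conventional array. It stood at 5.37 and 5.87 in SPF and at 6.89 and 5.11 in conventional cord, a difference of 0.38 ± 0.54. Omitting conventional replicate 2 gave 1.27, and omitting conventional replicate 1 gave -0.51. Its second probe had the same order of arrays, with 4.98 and 5.13 in SPF and 5.80 and 4.73 in conventional cord. On the same array, 8 of 8 neutrophil genes summed to 3760, against 873 on the other conventional array and 1280 and 1050 in SPF. In SPF the neutrophil sum was higher on replicate 1, and Ccl12 was higher on replicate 2. Gene by gene, S100a8, S100a9, Ltf, Camp and Retnlg were higher on SPF replicate 1. Ngp (5.59 and 5.84), Mpo (5.57 and 6.12) and Elane (5.10 and 5.57) were higher on SPF replicate 2, as Ccl12 was. The border macrophage sums given above were 178 and 408 in SPF and 350 and 135 in conventional cord. They were higher on SPF replicate 2 and on conventional replicate 1, with their highest value on SPF replicate 2. Gene by gene, Mrc1, Lyve1 and Pf4 were highest on SPF replicate 2. F13a1 was highest on conventional replicate 1 (6.84, against 6.42 on SPF replicate 2). The part of neutrophils or border macrophages in the Ccl12 values was not tested.

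**Figure D4:**
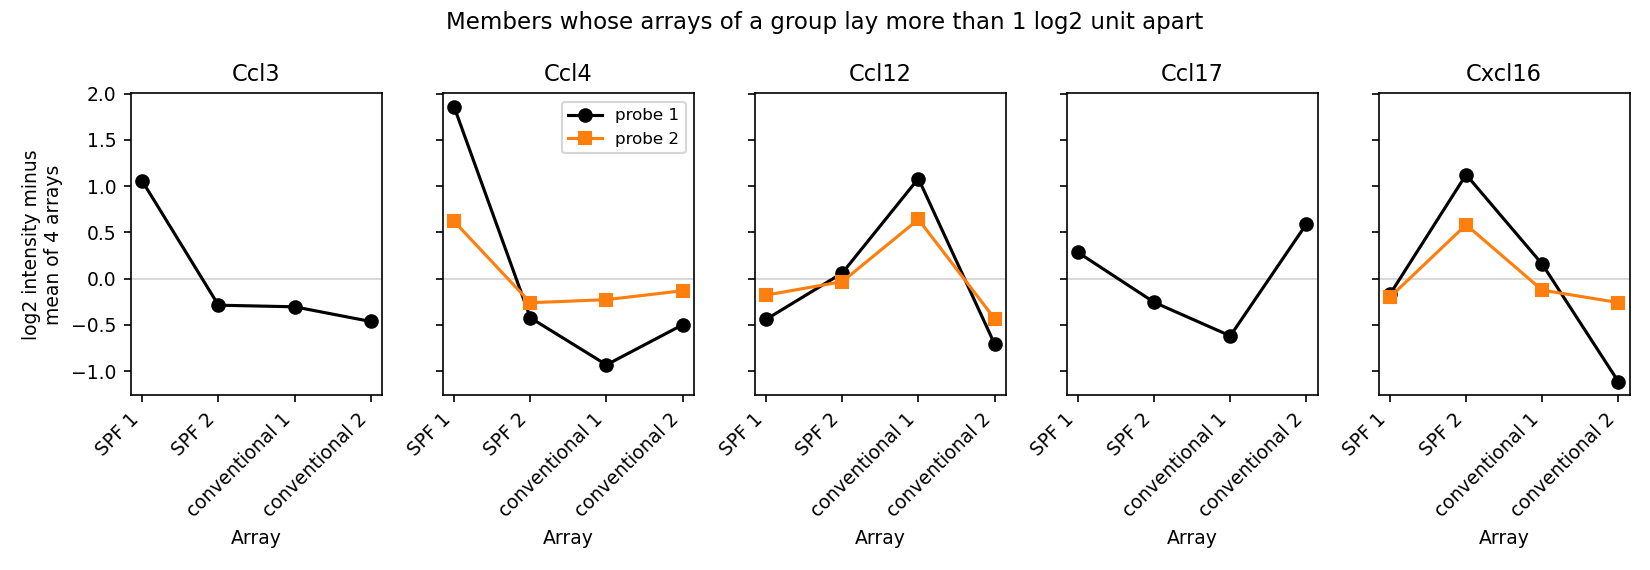
Deviation of each probe from its mean over the 4 arrays, in log2 intensity, for Ccl3, Ccl4, Ccl12, Ccl17 and Cxcl16. Lines join the points of a probe, and a second probe is drawn where the gene has one. Both probes of Ccl4 peak on SPF replicate 1, both of Ccl12 on conventional replicate 1 and both of Cxcl16 on SPF replicate 2.

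The arrays of a group often differed from each other by more than the groups did. In 5 of the 19 genes (Ccl3, Ccl4, Ccl12, Ccl17 and Cxcl16) the arrays of a group lay more than 1 log2 unit apart, against 2.86% of all features. Such gaps are commoner at low levels. Of the 11 members with a mean level under 7 log2 units these 5 passed, against 4.71% of features under that level. In 17 of 19 genes the larger within-group gap exceeded the difference between the group means, as it did in 79.8% of all features. For the 3 of these 5 genes with a second probe, both probes were highest on the same array, although the probes share the RNA of that array and are not separate replicates.

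The 250 bases before the transcription start of 3 of these 5 genes are shown because they are the regulatory sequence nearest to the members that varied most between arrays. They are from RefSeq (GRCm38.p6), for Ccl3 chr11:83649379-83649628 on the minus strand, for Ccl12 chr11:82101595-82101844 on the plus strand and for Ccl17 chr8:94810203-94810452 on the plus strand. Capitals mark matches, on either strand, to TATAAA (the TATA box), TGACTCA (an AP-1 site) or the kappaB consensus.
Ccl3: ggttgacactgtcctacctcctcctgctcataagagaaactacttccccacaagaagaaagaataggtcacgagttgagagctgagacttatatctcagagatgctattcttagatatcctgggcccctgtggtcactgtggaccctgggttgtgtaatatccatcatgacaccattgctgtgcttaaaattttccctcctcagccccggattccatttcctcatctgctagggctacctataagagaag
Ccl12: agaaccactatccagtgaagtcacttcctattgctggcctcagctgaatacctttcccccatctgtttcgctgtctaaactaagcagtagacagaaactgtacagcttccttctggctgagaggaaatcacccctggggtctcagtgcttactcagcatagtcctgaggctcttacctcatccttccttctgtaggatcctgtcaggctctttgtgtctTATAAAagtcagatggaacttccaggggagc
Ccl17: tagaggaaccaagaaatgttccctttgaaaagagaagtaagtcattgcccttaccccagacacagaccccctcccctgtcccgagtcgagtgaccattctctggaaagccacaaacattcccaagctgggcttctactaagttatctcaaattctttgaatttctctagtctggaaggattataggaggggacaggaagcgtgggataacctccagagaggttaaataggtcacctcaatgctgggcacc
Ccl12 holds a TATAAA that spans bases 31 to 26 before the start, and no other match was found in the 3 windows. Of all windows of this length in the table, 12.4% hold TATAAA, 4.46% TGACTCA and 7.25% the kappaB consensus. A match is a string of letters and not a shown binding site.

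In all 4 tested receptor genes each conventional array exceeded each SPF array, against 15.6% of all features. This held for 3 with median scaling, where Cxcr4 overlapped, and for 3 with the mean of a gene's probes, where Ccr6 overlapped. With a detection p under 0.01 on all 4 arrays only 2 receptors remained tested, Ackr1 and Cxcr4, and it held for both. Ackr1, the Duffy antigen receptor of venules and red cells, which binds many inflammatory chemokines, stood at 10.37 and 10.88 in SPF and at 10.98 and 10.98 in conventional cord. The difference was 0.35 ± 0.18 (95% interval -0.06 to 0.77, unadjusted p = 0.085, adjusted p = 1 in limma's test), and without SPF replicate 1 it was 0.10. The arrays had the same order in the sum over the 7 endothelial genes, which came to 3700 and 5120 in SPF and to 5390 and 5540 in conventional cord. Gene by gene, Flt1 alone had this order. Pecam1, Slco1c1 and Ly6c1 were also higher on both conventional arrays, while the groups overlapped for Cldn5 (9.88 and 10.62 in SPF, 9.74 and 10.29 in conventional cord), Cdh5 and Tek. The sums of the 5 red blood cell genes, given above, were lower on both conventional arrays. The part of vessels in the Ackr1 values was not tested.

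Ackr4, a scavenger for Ccl19, Ccl21 and Ccl25, stood at 5.50 and 5.77 in SPF and at 5.88 and 6.12 in conventional cord, a difference of 0.37 ± 0.23 that ranged from 0.23 to 0.50 with 1 array left out. Its other 3 probes were not above background on any array. Cxcr4, the receptor of Cxcl12, stood at 5.68 and 5.72 in SPF and at 5.93 and 5.79 in conventional cord, a difference of 0.16 ± 0.21. It became 0.094 when conventional replicate 1 was omitted and 0.23 when conventional replicate 2 was. Ccr6, the receptor of Ccl20 on lymphocytes, stood at 5.35 and 4.99 in SPF, where it passed the detection threshold on 1 of 2 arrays, and at 5.60 and 5.47 in conventional cord (0.36 ± 0.23). A further Ccr6 probe, above background on all arrays, gave -0.25 ± 0.24, so the direction belongs to the probe. The mean of both probes gave 0.06, and the reported probe gave 0.18 when SPF replicate 2 was omitted and 0.55 when SPF replicate 1 was. None of the 4 receptors passed the test, and their separation rests on the 2 arrays of each group.

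Genes that act with the family were examined as a list of 52, made of further ligands and receptors, proteases and the signalling chain below the receptors. Of 48 on the array, 33 were tested and 0 passed limma's test, with 0 also at an unadjusted p under 0.05. The conventional mean was above the SPF mean in 10 and below it in 23, with a median difference of -0.08, which was -0.01 without SPF replicate 1 and -0.14 without SPF replicate 2. Both conventional arrays lay below both SPF arrays in 8 genes, against 15.1% of all features, and above in 1, against 15.6%. Xcl1 and its receptor gene Xcr1 were not above background.

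The members of that list with the largest differences were Dpp4, Ptk2b, Was and Cmtm7. Dpp4, the protease that trims and inactivates Cxcl12, stood at 5.53 and 7.69 in SPF and at 6.46 and 5.48 in conventional cord, a difference of -0.64 ± 0.66. It had the same order of arrays as Cxcl16 and the sum of the meningeal genes. Ptk2b, a kinase that links calcium to cell migration, was higher on both conventional arrays with 0.51 ± 0.24. Was, the actin regulator of blood cells, differed by -0.47 ± 0.26 and Cmtm7 by -0.40 ± 0.22, both with the conventional arrays below the SPF arrays. The 10 tested microglial genes had a median difference of -0.19 on the same arrays, and their part in these values was not tested.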

How the data were processed

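Per the file headers, the authors deposited non-normalized bead signals, intensity values on a linear scale, each with a detection p-value deposited beside it. The authors' normalized intensity table was used as an alternative. The submitters' processing notes name lumi, with version and settings not given in the sources used here. The names of genes come from the platform annotation (34885 of 45281 probes with 1 symbol, 18 with several, 10378 unnamed).

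Background correction and quantile normalization used neqc (limma 3.58.1, R 4.3.3, offset 16, log2), with control values inferred from the detection p-values. Probes with a detection p under 0.05 on at least 2 of 4 arrays were kept (21065), 1 probe per gene with the highest mean, giving 14634 features. The groups were compared with lmFit and eBayes (trend), as a two-sided test, adjusting p-values over all features by Benjamini-Hochberg with a threshold of 0.05. The number of arrays limits the precision. No slide or scan batch is recorded in them. RefSeq promoter windows were matched by symbol for 38 of 52 genes.

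Every member above background was named, members above background on no array were named in counts, and of the pathway list Cx3cr1, Xcl1, Xcr1 and the 4 largest differences. Members and lists were chosen with earlier results of these data known. Alternatives covered background correction, scaling, the authors' table, filters, probe choice, variance models, a replicate block and each array left out.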

Additional observations from a re-analysis of the deposited data

How the results depend on the processing

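In each of the 10 alternative fits and the 4 fits that left out 1 array, 0 chemokine genes passed limma's adjusted threshold, and also 0 at an adjusted p under 0.1. Genes with both conventional arrays above both SPF arrays numbered 5 in the reported fit, 3 with median scaling, 3 with a detection p under 0.01 on all 4 arrays (10 genes tested), 12 of 52 with no filter and 4 with the mean of probes. Those below numbered 2, 1, 0, 4 and 2. With 1 array left out these counts ran from 6 to 10 above and from 3 to 6 below, where 1 array faces 2 and the background share is 30.8% to 34.8%. Median scaling moved the background split from 15.6% above and 15.1% below to 11.3% and 17.7%. Of 181 gene differences in the alternative fits, 3 changed sign: Ccl17 to 0.0045 without background correction and 0.0055 in the authors' table, and Ccl21c to -0.021 with median scaling. The size of the largest differences depended on the processing. Without background correction and in the authors' table, Ccl4 went from -1.43 to -0.69 and -0.41. Cxcl16 went from -0.96 to -0.42 and -0.23, and Ccl3 from -0.77 to -0.28 and -0.14. The brighter Ackr1 changed little, from 0.35 to 0.33 and 0.32. Differences that changed sign with 1 array left out ranged from -0.18 to 0.29 for Ccl11, -0.51 to 1.27 for Ccl12, -0.63 to 0.58 for Ccl17, -0.19 to 0.49 for Ccl19, -0.70 to 0.28 for Ccl21a, -0.25 to 0.27 for Ccl21c, -0.054 to 0.19 for Ccl27a, -0.17 to 0.25 for Cxcl12 and -0.040 to 0.33 for Cxcl14. The lone array is assumed to vary like the other group. For these changes the cause was not tested. The labels do not say that equal replicate numbers pair the arrays. Deviations of same-numbered arrays correlated at 0.217, above the 0.1 used as a mark of pairing in larger designs, which 2 arrays a group cannot settle. With the replicate block 0 chemokine genes passed, against 5 of all features. The count of genes above background on at least 2 arrays was 19, and 17 with a detection p under 0.01. Ackr4, Ccl3, Ccl4, Ccl11, Ccl12, Ccl17, Ccl21c, Ccr6 and Cxcl16 did not reach a detection p under 0.01 on all 4 arrays. Levels near background on at least 1 array limit what the probes of these genes can resolve.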

Other observations

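Windows of 250 bases before the start were found in the RefSeq table for 38 of the 52 chemokine genes. TATAAA stood in 12 of the 38 (31.6%), against 14.3% of all genes in the table, TGACTCA in 3 (7.89%, against 5.16%) and the kappaB consensus in 10 (26.3%, against 8.23%). Among the 15 tested chemokine genes with a window the counts were 6, 1 and 2. These are descriptions of the letters in the windows, without a test.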
